A study of Mus musculus with 11 samples.

Results

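The 9 genes described here are Six2, Six4, Six5, Eya1, Eya2, Eya3, Eya4, Pax3 and Pax7, chosen by name as upstream regulators of the muscle programme from 20368 gene symbols. They were followed in 2 expression tables and, through every MyoD peak, MyoG peak and H3K4me1 domain within 50 kb of each locus, in 5 chromatin lists. The cells were C2C12, a mouse myoblast line of strain C3H that divides in 10% fetal bovine serum and forms myotubes in medium with 2% horse serum and insulin, transferrin and selenium. PolyA RNA came from cells 4 h into that medium, in 4 groups. DRRi cells had RNAi against the enhancer RNA made at the distal regulatory region (DRR) upstream of Myod1, with RNAi against GFP (GFPi) as the control. The pHAN_DRR1.2 cells overexpressed DRR RNA, with overexpressed GFP (pHAN_GFP) as the control. The chromatin lists, from sequenced chromatin immunoprecipitates, gave MyoD peaks and H3K4me1 domains in proliferating myoblasts and in myotubes at 48 h, and MyoG peaks in those myotubes. Each group was 1 sample of this cell line, so differences between groups could not be set against a spread between replicates. The DRR RNA itself is no coding sequence, and its level was not analysed here. Summed FPKM per RNA library lay between 383311 and 411626, and the read depth behind the values is unknown.

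Six-family proteins are homeodomain transcription factors that bind the MEF3 site found in the control regions of Myog and other muscle genes. Eya proteins do not bind DNA. They act as coactivators of Six-family proteins and also carry a phosphatase domain. Pax3 and Pax7 are paired-box factors that act upstream of the muscle factors Myf5 and MyoD, Pax3 mainly in the embryo and in migrating limb precursors, Pax7 in the satellite cells of adult muscle. MyoD and MyoG are basic helix-loop-helix factors that bind the E box. H3K4me1, monomethylated lysine on histone H3, marks enhancers.

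RefSeq promoter sequences (build GRCm38.p6) were at hand for 6 of the 9 genes, under 8 start sites. They are shown because MyoD peaks lay close to the starts of Six5, Eya3 and Eya4, and because Six4 and Eya4 were the members that differed most after DRRi. The sequences were searched on both strands for the E box (CANNTG), its CAGCTG form, which is itself an E box, and the MEF3 site (TCAGGTT, extended form TCAGGTTTC). Capitals mark the matches, and each long sequence is the 250 bases before a start, 5′ to 3′ along the gene.
Six5, chr7:19094294-19094543, plus strand: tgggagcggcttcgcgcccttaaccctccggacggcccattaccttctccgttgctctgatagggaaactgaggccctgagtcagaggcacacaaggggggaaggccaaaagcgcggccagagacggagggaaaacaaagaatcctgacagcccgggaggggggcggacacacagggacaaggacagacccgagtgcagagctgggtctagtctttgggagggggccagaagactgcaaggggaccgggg
Eya3, chr4:132638796-132639045, plus strand: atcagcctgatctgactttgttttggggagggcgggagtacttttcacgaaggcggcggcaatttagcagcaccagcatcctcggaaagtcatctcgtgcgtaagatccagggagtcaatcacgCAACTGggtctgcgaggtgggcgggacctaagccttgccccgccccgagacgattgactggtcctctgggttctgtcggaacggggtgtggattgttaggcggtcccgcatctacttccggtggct
Six4, upper of 2 starts, chr12:73113426-73113675, minus strand: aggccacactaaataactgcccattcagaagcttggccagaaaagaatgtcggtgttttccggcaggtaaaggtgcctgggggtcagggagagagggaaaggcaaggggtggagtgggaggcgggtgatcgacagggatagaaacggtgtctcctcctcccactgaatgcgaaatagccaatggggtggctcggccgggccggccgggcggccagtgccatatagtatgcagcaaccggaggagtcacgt
Eya4, upper of 2 starts, chr10:23349944-23350193, minus strand: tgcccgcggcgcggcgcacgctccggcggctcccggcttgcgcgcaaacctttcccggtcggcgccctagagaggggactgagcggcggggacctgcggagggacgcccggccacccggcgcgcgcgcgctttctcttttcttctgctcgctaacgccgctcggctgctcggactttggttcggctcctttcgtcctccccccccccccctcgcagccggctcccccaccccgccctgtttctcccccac
Six4, 30 bases around the MEF3 match, chr12:73113324-73113353, minus strand: ggcctgggggaAACCTGAtcggccagatcc
Eya4, 30 bases around the E box, chr10:23349929-23349958, minus strand: ctgtttctccccCACTTGtgtaagctattt

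A MEF3 site stood 97 bases before the lower of the Six4 starts, on the opposite strand, and it matched the extended form as well. The letters TCAGGTT occur in 3.49% of 32851 RefSeq windows of this length, and TCAGGTTTC in 0.387%. The Eya3 window held 1 E box, CAACTG, and the lower Eya4 start had 1, CACTTG. The general form CANNTG occurs in 66.2% of the windows and CAGCTG in 13.0%. None of the 4 motifs matched the windows of Six2, Six5, Pax7, the upper Six4 start or the upper Eya4 start. A match is a description of letters and shows no binding.

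The expression level of the 9 genes fell into 3 tiers. Eya4, Six4, Eya3 and Pax7 were the most abundant, each between 8.16 and 22.3 FPKM (fragments per kilobase, scaled to the library) in all 4 libraries. Eya1 lay between 2.49 and 3.98 FPKM, and Six5 between 1.51 and 2.58. Six2, Eya2 and Pax3 were close to 0: the highest value of any of them in any library was 0.114 FPKM, for Eya2 in pHAN_DRR1.2. Thus 6 of the 9 reached a mean of 1 FPKM in each table and were measured for change. Among the genes measured, 68.0% lay below Eya4 and 57.2% below Six4 in GFPi. Pax7, the satellite cell factor, had a level above 61.5% of genes in pHAN_GFP.

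The order within the upper tier differed between the 2 GFP controls, which belong to tables normalized separately. In GFPi the order was Eya4 at 22.3 FPKM, Six4 at 15.8, Eya3 at 15.4 and Pax7 at 14.4. In pHAN_GFP it was Pax7 at 17.1 FPKM, Eya4 at 16.6, Eya3 at 13.0 and Six4 at 11.9. No spread between replicates exists against which neighbours in these orders could be separated.

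**Figure D1:**
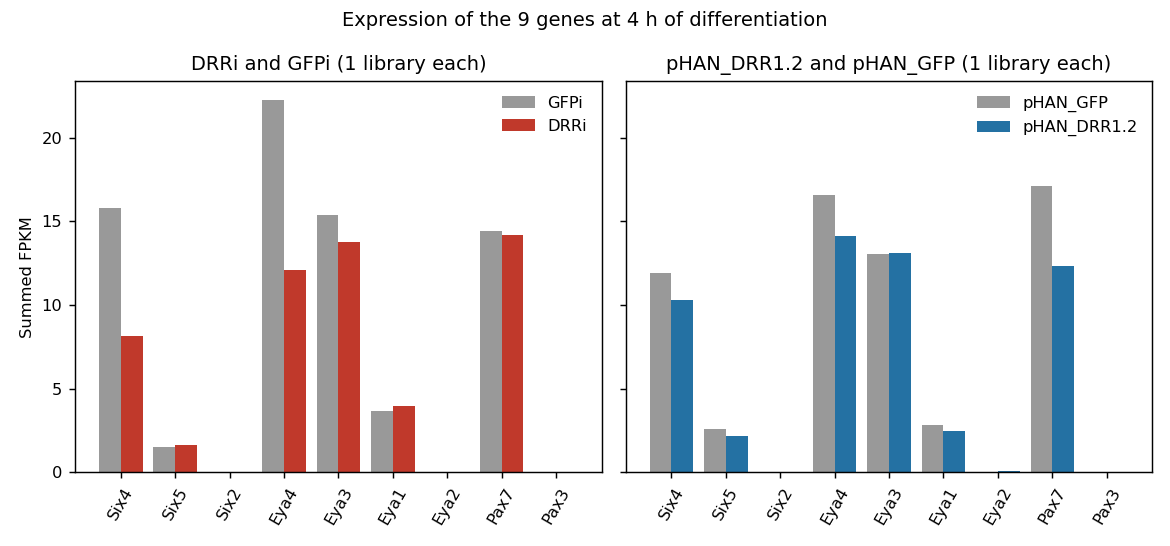
Summed FPKM of the 9 genes, 1 bar per library, with GFPi and DRRi at left and pHAN_GFP and pHAN_DRR1.2 at right. Six4 and Eya4 have the widest gap between DRRi and GFPi, Pax7 the widest in the other table, and Six2, Eya2 and Pax3 show no visible bar above 0.114 FPKM.

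With RNAi against DRR RNA, the Six4 and Eya4 levels were lower and the other 4 measured members were close to the control. Six4, a DNA-binding partner of the Eya proteins, stood at 8.16 FPKM in DRRi and 15.8 in GFPi, 1.94-fold lower (log2 change with a pseudocount of 1, -0.88). Eya4, a coactivator, stood at 12.1 FPKM in DRRi and 22.3 in GFPi, 1.84-fold lower (-0.83). From the lowest change upward, Six4 ranked 127 and Eya4 153 of 10577 genes measured. At 1.5-fold or more, 2 of the 6 members were lower and 0 higher, where 3.5% of all genes were lower and 4.66% higher. The q-values in the authors' deposited table were 0.0991 for Six4 and 0.159 for Eya4. At a q under 0.05, 0 members were called in that table, where 0.637% of tested coding sequences were called higher and 0.532% lower.

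An approximate error can be read back from the authors' p-values, which rest on 1 library per condition. Their p of 0.00155 for Six4 corresponds to a standard error of 0.30 on the log2 ratio, and to a 95% interval of 0.343 to 0.777 for the ratio of DRRi to GFPi. For Eya4 the p of 0.00338 corresponds to an interval of 0.362 to 0.817. Both intervals lie below 1, which restates the p-values they were derived from and is no separate evidence. Neither is adjusted for the number of coding sequences tested, 13349.

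Eya3, another coactivator, stood at 13.7 FPKM in DRRi and 15.4 in GFPi (-0.15). Pax7 was at 14.2 and 14.4 FPKM (-0.02). Eya1, linked in humans to branchio-oto-renal syndrome, was at 3.98 and 3.68 FPKM (0.09), and Six5 at 1.67 and 1.51 (0.09). In the authors' deposited table the q was 1.00 for each of these 4 genes. The interval implied for the Pax7 ratio, 0.654 to 1.48, leaves room for a difference in either direction. The median over the 6 members was -0.09, against 0.02 over all genes measured.

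With DRR RNA overexpressed, the members lay at or slightly below the control. Pax7 had the largest difference, at 12.3 FPKM in pHAN_DRR1.2 and 17.1 in pHAN_GFP, 1.39-fold lower (-0.44), and ranked 136 from the lowest of 10699 genes. In the authors' deposited table the p for Pax7 was 0.0114 and the q 0.369, and the implied interval for the ratio was 0.558 to 0.929. Eya4 was at 14.1 and 16.6 FPKM (-0.22), Six4 at 10.3 and 11.9 (-0.19), Six5 at 2.15 and 2.58 (-0.18) and Eya1 at 2.49 and 2.81 (-0.13). Eya3 was at 13.1 and 13.0 FPKM (0.00). None of the 6 passed 1.5-fold in either direction, a size that 1.38% of all genes passed as higher and 0.654% as lower. Their median was -0.19, against 0.02 over all genes, and 5 of 6 were below 0, as were 4748 of the 10699 genes. At a q under 0.05 the authors' deposited table again called 0 members, where 0.88% of coding sequences were called higher and 0.547% lower.

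**Figure D2:**
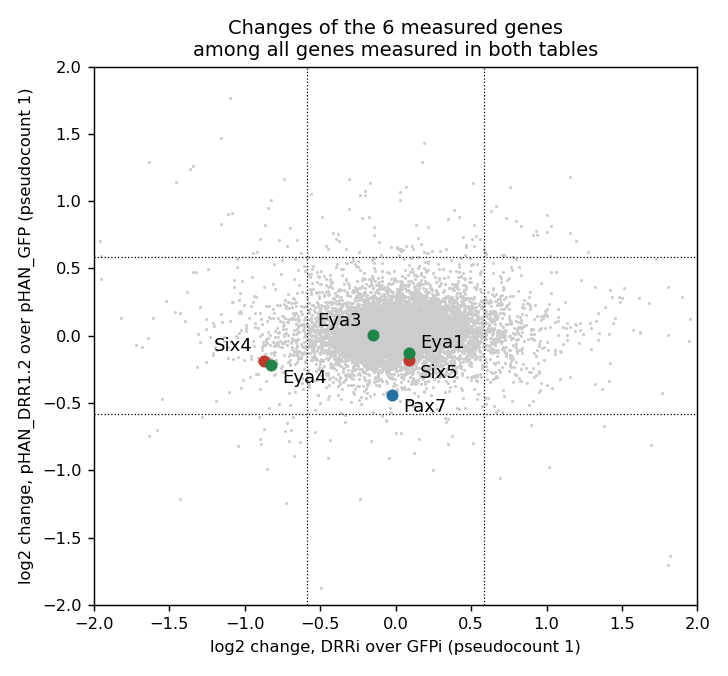
Each grey point is 1 of 10398 genes measured in both tables, placed by its log2 change (pseudocount 1) after DRRi on the horizontal axis and after DRR RNA overexpression on the vertical axis, with 5 points beyond the axes. Dotted lines mark 1.5-fold. Six4 and Eya4 sit together left of the line at -0.88 and -0.83, and Pax7 is the lowest member on the vertical axis at -0.44.

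Six4 and Eya4 had nearly the same pair of changes. Among the 7927 genes whose mean reached 5 FPKM in each table, the 5 nearest to Six4 by the distance between their 2 log2 changes were Csgalnact2, Slc9a9, Asph, Nek7 and Eya4. Eya4 lay at a distance of 0.054, while Eya3 was number 1945 in that order and Pax7 number 3500. The measure rests on 2 comparisons of 1 library each and describes likeness in these tables alone.

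Genes that work with the members, or downstream of them, were followed as lists. Of 6 other genes of the Six-Eya-Dach network, 2 were measured, and 1 of them stood lower in DRRi by at least 1.5-fold. It was Sobp, which encodes a protein that binds Six-family factors, at 1.09 FPKM in DRRi and 2.89 in GFPi (-0.90, q 0.0925 in the authors' deposited table). With DRR RNA overexpressed 0 of the 2 passed, and Sobp was at 2.76 and 3.95 FPKM (-0.40). Of 7 other Pax genes, 0 reached a mean of 1 FPKM in either table.

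Of 14 known targets of Six-family proteins, 10 were measured in DRRi and 11 in pHAN_DRR1.2. In DRRi, 6 of 10 passed 1.5-fold as lower and 0 as higher, against 3.5% and 4.66% of all genes, and the median was -0.99. In pHAN_DRR1.2, 7 of 11 passed as higher and 0 as lower, against 1.38% and 0.654% of all genes, and the median was 0.90. The medians over all genes were 0.02 in each table. Myod1, Myf5, Aldoa and Eno3 were measured and passed in neither table. Their changes ran from -0.26 to 0.27 in DRRi and from -0.07 to 0.26 in pHAN_DRR1.2. Tnnt3, the fast troponin T gene, stood at 0.287 FPKM in DRRi and 1.73 in GFPi (-1.08), and at 10.1 in pHAN_DRR1.2 and 4.91 in pHAN_GFP (0.91), and the authors' deposited table lists its q as 1.00 both times. Myog, a muscle transcription factor, Tnni2 and Tnnc2, fast troponins, Mylpf, a myosin light chain, and Atp2a1, a calcium pump, passed in both tables, in opposite directions. In the authors' deposited table for DRRi the q was 0.00848 for Myog and 0.0248 for Mylpf. It was 0.195 for Tnni2, 0.168 for Tnnc2 and 0.639 for Atp2a1 there. For pHAN_DRR1.2 the q was under 0.05 for all of these except Atp2a1, at 0.182. Ckm, the muscle creatine kinase, passed in pHAN_DRR1.2 and was under the filter in DRRi. The log2 changes of the targets that passed ran from -1.74 to -0.90 in DRRi and from 0.72 to 2.10 in pHAN_DRR1.2. Six4 and Eya4 had values below 0 in both tables, but in pHAN_DRR1.2 the intervals implied for their ratios spanned no change. These were 0.671 to 1.12 for Six4 and 0.662 to 1.10 for Eya4.

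Known targets of Pax3 or Pax7 had a median of 0.10 in DRRi, where 2 of 8 stood lower and 0 higher, and of 0.03 in pHAN_DRR1.2, where 1 of 8 stood lower and 0 higher. Over all genes, 3.5% were lower in DRRi and 0.654% in pHAN_DRR1.2. Fgfr4, the fibroblast growth factor receptor gene that Pax3 is known to activate, was lower in both. It stood at 9.37 FPKM in DRRi and 16.2 in GFPi (-0.73, q 0.375 in the authors' deposited table), and at 15.4 in pHAN_DRR1.2 and 25.8 in pHAN_GFP (-0.71, q 0.00849 there). Cxcr4, a chemokine receptor of migrating precursors, was at 12.1 FPKM in DRRi and 29.1 in GFPi (-1.19, q 0.0244 in the authors' deposited table).

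Satellite cell markers had 1 of 9 measured genes higher and 3 lower in DRRi, against 4.66% and 3.5% of all genes, with a median of -0.03. Cd34 was at 25.8 FPKM in DRRi and 41.1 in GFPi (-0.65), Itga7, an integrin, at 46.8 and 74.3 (-0.66), and Megf10 at 32.8 and 51.9 (-0.65). Sdc3, a syndecan, was higher at 29.5 and 18.0 FPKM (0.68). The authors' deposited table called none of these genes, with q from 0.353 for Sdc3 to 0.490 for Cd34. In pHAN_DRR1.2, 0 of 9 passed, with a median of 0.18.

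The libraries had the markers of a muscle line. Myh3, the embryonic myosin gene, was at 4.79 FPKM in pHAN_DRR1.2 and 1.01 in pHAN_GFP (1.52), and at 0.056 in DRRi and 0.410 in GFPi. Myod1 lay between 33.1 and 68.9 FPKM and Des, the muscle intermediate filament gene, between 231 and 577. Adipocyte and endothelial markers, 3 each, summed to 0.445 FPKM or less in every library. Ptprc, the defining blood marker, was at 0 in 3 libraries and 0.016 in pHAN_GFP, and Cd68, the other blood marker with values, lay between 1.58 and 2.52. Hba-a1, also on the blood list, had no value. The neural list held 1 gene above 0.001 FPKM, Tubb3, at 35.5 in DRRi, 24.5 in GFPi, 91.0 in pHAN_DRR1.2 and 51.0 in pHAN_GFP. The 3 fibroblast markers summed to 15.0 FPKM in DRRi and 5.41 in GFPi, and 1 of them, Col1a1, was higher, at 14.2 and 4.32. Pdgfra stood at 0.774 in DRRi and 0.920 in GFPi, and Dcn at 0.102 and 0.179. In pHAN_DRR1.2 and pHAN_GFP the sums were 31.2 and 22.1, and 1 of 3 passed 1.5-fold: Dcn, at 7.78 and 3.02 FPKM (1.13, q 0.00849 in the authors' deposited table). There Col1a1 stood at 22.5 and 17.4 (0.35) and Pdgfra at 0.978 and 1.65 (-0.42). Their part in the lower Six4 and Eya4 levels was not tested, and in bulk RNA fewer cells of a type and less RNA per cell cannot be told apart.

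Muscle factors occupied chromatin near 8 of the 9 genes. Within 50 kb of the loci lay 39 of 18141 MyoD peaks in myoblasts, 60 of 39700 in myotubes and 42 of 35380 MyoG peaks. The same windows held 105 H3K4me1 domains in myoblasts and 115 in myotubes. Of all loci in the tables, 57.3% had a myoblast MyoD peak within 50 kb, 74.1% a myotube MyoD peak and 71.8% a MyoG peak, and 81.7% and 79.7% an H3K4me1 domain in myoblasts and myotubes. A window with peaks is therefore common, and the loci are described below by which sites they held. Six2, nearly silent in the RNA, was the exception, with 0 peaks and 0 domains of all 5 lists, as for 15.6% of all loci.

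Windows differ in length with the gene, so counts were also set per 100 kb. Six4 had the densest occupancy, with 8.85 myotube MyoD peaks per 100 kb, above 95.3% of all loci, and 7.97 MyoG peaks, above 94.6%. Pax7 followed for MyoD, at 6.16 per 100 kb in myotubes, above 86.3% of loci, and 4.10 in myoblasts, above 95.9%. Its MyoG density, 1.54 per 100 kb, was above 48.4% of loci. Eya4, the longest locus at 246 kb, had 12 myotube MyoD and 14 MyoG peaks, or 3.47 and 4.05 per 100 kb. Eya1 had the lowest density among the occupied loci for myoblast MyoD, at 0.829 per 100 kb.

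**Figure D3:**
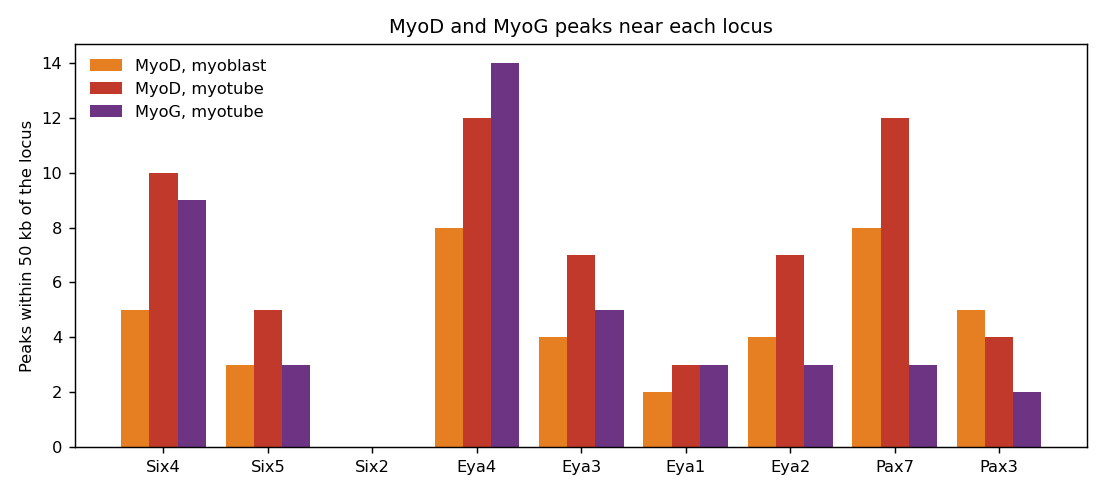
Bars give, for each locus, how many peaks of the myoblast MyoD, myotube MyoD and myotube MyoG lists lay within 50 kb. Eya4 has the most MyoG peaks, 14, Pax7 has 12 myotube MyoD peaks beside 3 MyoG peaks, and Six2 has 0 of each.

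Of the 60 myotube MyoD peaks near the members, 31 (51.7%) overlapped a myoblast MyoD peak, against 34.1% of the whole myotube list. Those already present in myoblasts had a median score of 451 and the 29 new ones a median of 131. In the whole list these medians were 404 and 130, so the members' sites had the same order as the list. A MyoG peak overlapped 33 of the 60 (55.0%), against 66.9% of the list. Seen from the other side, 33 of 42 MyoG peaks (78.6%) overlapped a myotube MyoD peak, against 77.6% of the list. H3K4me1 domains of myoblasts overlapped 45 of the 60 (75.0%, list 61.6%), and those of myotubes 52 (86.7%, list 85.0%). Of the 39 myoblast peaks, 31 (79.5%) overlapped a myotube MyoD peak, against 73.9% of their list, and 34 (87.2%) an H3K4me1 domain of myoblasts, against 86.7%. Myotube H3K4me1 domains overlapped 39 of the 42 MyoG peaks (92.9%), against 84.5% of the MyoG list.

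MyoD, MyoG and both stages came together at 21 sites, spread over 8 loci: 6 near Eya4, 3 each near Six4 and Pax7, 2 each near Six5, Eya2, Eya3 and Pax3, and 1 near Eya1. The scores are those of the authors and are used only within a list, as the share of that list with a lower score. The myotube MyoD list is longer than the myoblast list, with 39700 peaks against 18141. Over the whole myotube list, peaks kept from myoblasts stood above a median of 73.4% of it. A site's share can therefore differ between stages through the make-up of the lists alone. Coordinates of peaks are mm9, counted from 1. Whether a peak inside a locus is exonic or intronic was not analysed here, and upstream and downstream follow the RefSeq strand.

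**Figure D4:**
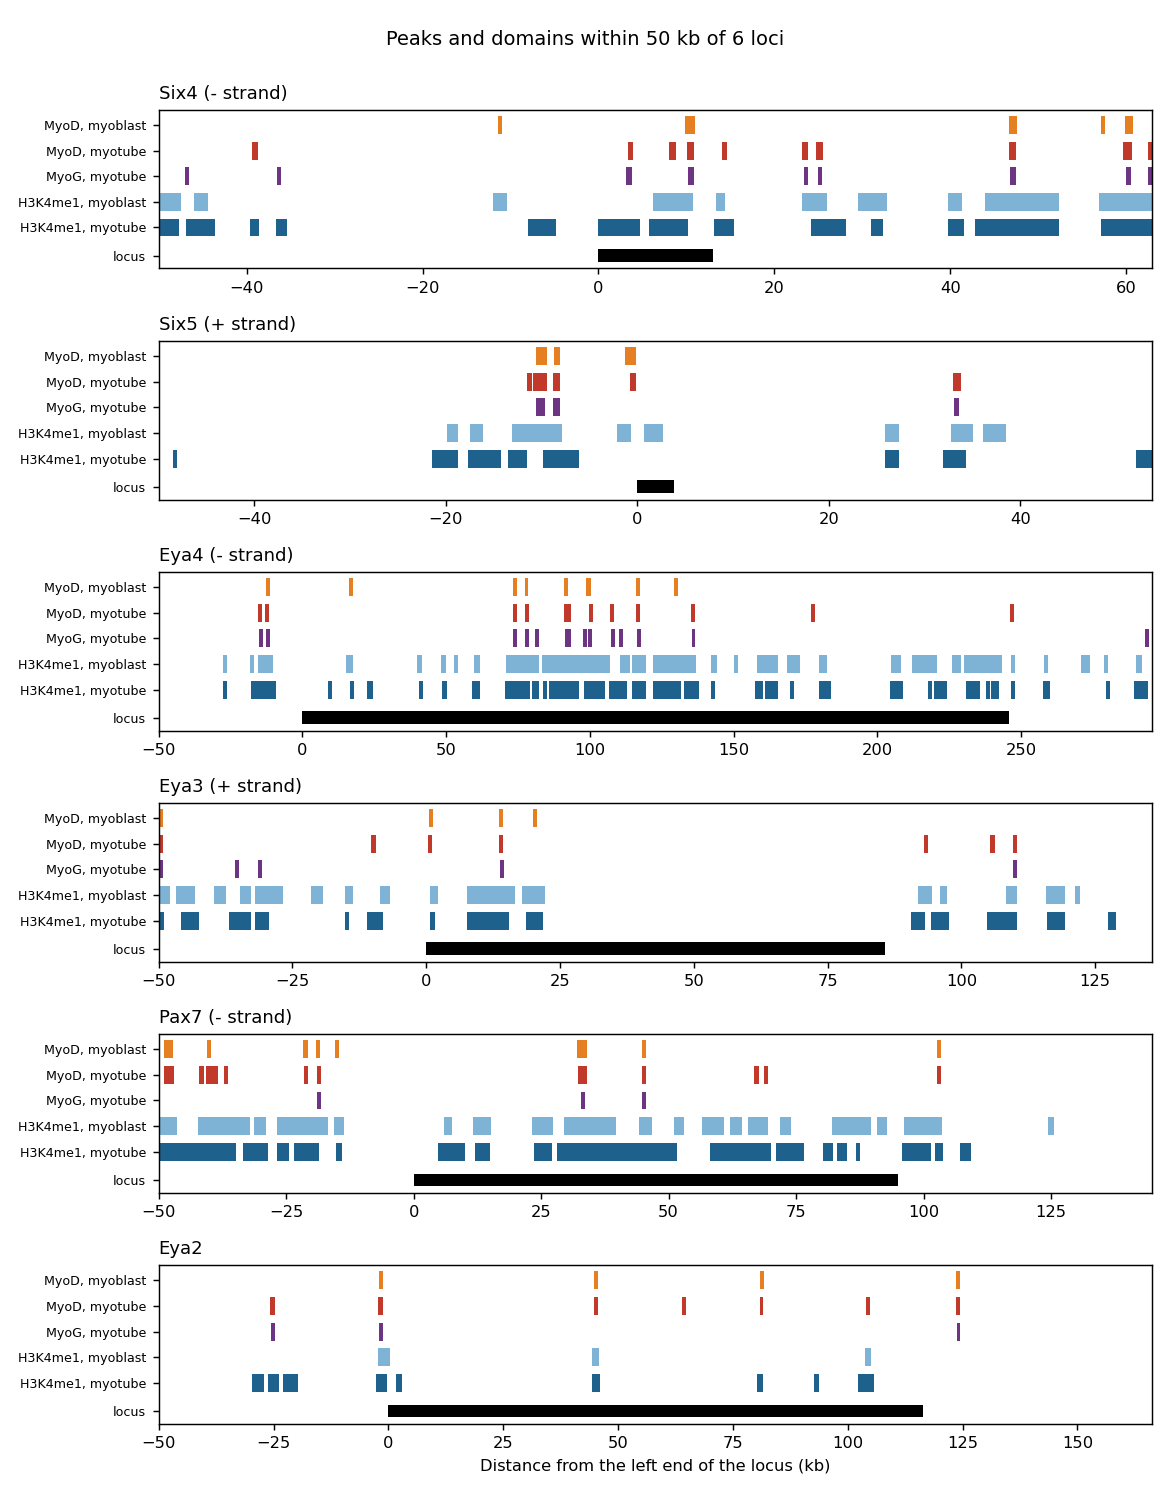
Positions of MyoD, MyoG and H3K4me1 intervals around 6 loci, in kb from the left end of each locus (black bar), with 1 row per list and the narrowest intervals widened to stay visible. Pax7 shows many MyoD intervals beside 3 of MyoG, and Eya2 shows 3 H3K4me1 domains in myoblasts and 9 in myotubes.

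At Six4 (chromosome 12, 74201245 to 74214232, minus strand) the MyoD peaks went from 5 in myoblasts to 10 in myotubes, of which 3 were shared. The strongest lay 46.7 kb upstream, at 74260903 to 74261909, inside the neighbouring Mnat1 locus. Its score was above 91.7% of the myoblast list and 91.4% of the myotube list, and the MyoG peak there was above 77.1% of its own. Inside the Six4 locus, 2.08 kb from the 5′ end, a peak at 74211272 to 74212154 ranked above 72.4% of the list in myoblasts and 50.5% in myotubes. New in myotubes were 7 sites, with scores from 61.0 to 221. The strongest of them, at 74263715 to 74264485 and 49.5 kb upstream, was above 57.8% of the list and had a MyoG peak. Closest to the gene were new sites 1.07 kb upstream (score 82.3) and, inside the locus, 4.17 kb (146) and 9.02 kb (81.4) from the 5′ end. The nearest locus was Six4 for 4 of the 10 myotube peaks. H3K4me1 covered 29.6% of the window in myoblasts and 39.8% in myotubes. Mnat1 itself was at 13.6 FPKM in DRRi and 12.0 in GFPi (0.16), and at 11.3 in pHAN_DRR1.2 and 12.6 in pHAN_GFP (-0.14), where Six4 had -0.88 and -0.19.

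Six5 (chromosome 7, 19679892 to 19683694, plus strand) lies 723 bases from Dmpk, the myotonic dystrophy kinase gene whose expanded repeat in patients adjoins the Six5 start. The strongest of all 60 myotube MyoD peaks near the members was here, 9.49 kb upstream at 19669032 to 19670400, inside Dmpk. It ranked above 97.5% of the myotube list, 97.4% of the myoblast list and, for MyoG, 97.5% of the MyoG list. Right at the Six5 start, a myoblast peak ended 192 bases before the locus with a score of 223, above 60.5% of its list. The overlapping myotube peak scored 61.6, above 1.63% of its list and near the lowest score that list holds, 60. Dmpk was at 23.6 FPKM in DRRi and 23.0 in GFPi (0.04), and Six5 at 1.67 and 1.51. All 5 myotube MyoD peaks of this window had another gene as their nearest locus.

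At Eya4 (chromosome 10, 22823973 to 23069709, minus strand), MyoG accompanied MyoD at 10 of 12 myotube sites. The sites lay far from the start: 4 of the 6 bound by all 3 were between 145 and 172 kb from the 5′ end, inside the locus. The strongest in myoblasts, at 22939918 to 22940821 and 129 kb from the 5′ end, ranked above 96.9% of the myoblast list and 89.0% of the myotube list, while its MyoG peak was above 21.3% of the MyoG list. The strongest in myotubes, 11.9 kb downstream at 22811086 to 22812087, was above 92.6% of the list. A site at 22808642 to 22809691, 14.3 kb downstream, was new in myotubes with MyoD above 86.3% and MyoG above 88.6% of their lists. Near the start, a myotube MyoD peak 0.418 kb upstream, at 23070127 to 23070811, scored 102 and had no MyoG or myoblast MyoD partner. H3K4me1 covered 37.7% of this window in myoblasts and 33.6% in myotubes.

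Eya3 (chromosome 4, 132194960 to 132280678, plus strand) had a MyoD peak beside its start at both stages. It began 0.255 kb inside the locus in myotubes, at 132195215 to 132195881, and ranked above 9.93% of the list in myoblasts and 45.5% in myotubes. The strongest myotube peak, 9.45 kb upstream at 132184642 to 132185506, was above 90.6% of the list, absent from the myoblast list and without a MyoG peak. It lay in a myotube H3K4me1 domain (fold over control 2.83) and in none of the myoblast list.

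Eya1 (chromosome 1, 14159038 to 14300280) held 3 myotube MyoD peaks, 2 within the locus and 1 across its right end. The strongest, at 14294391 to 14295258, was above 90.4% of the list in myoblasts, 86.5% in myotubes and 84.2% for MyoG. The one across the right end, at 14299868 to 14300552, was present at both stages without MyoG. The other, at 14179847 to 14180570, was new in myotubes with MyoG above 57.0% of its list.

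Eya2 (chromosome 2, 165480797 to 165597131) had the largest difference in H3K4me1 cover between stages, in kb, among the 9 loci, while its RNA at 4 h lay between 0.013 and 0.114 FPKM. MyoD peaks numbered 4 in myoblasts and 7 in myotubes, and all 4 myoblast sites ranked higher in the myotube list than in the myoblast list. For instance, the site at 165561587 to 165562399 went from above 72.6% to above 91.7% of its list. How ranks moved between the lists over all kept sites was not analysed here. The strongest site, 24.7 kb before the left end at 165455102 to 165456095, was new in myotubes, with MyoD above 92.1% and MyoG above 93.4% of their lists. H3K4me1 domains numbered 3 in myoblasts and 9 in myotubes, covering 5.2 and 20.2 kb, or 2.40% and 9.34% of the window. Their median fold over control was 1.78 in myoblasts and 2.64 in myotubes, where the medians of the whole lists were 2.32 and 2.70. Myotube RNA was not analysed here. In kb, Eya4 came next after Eya2, with 130 kb covered in myoblasts and 116 kb in myotubes. By share of the window the difference was larger at Six4 than at Eya2, with 29.6% in myoblasts and 39.8% in myotubes.

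Pax7 (chromosome 4, 139293995 to 139388883, minus strand) had dense MyoD peaks beside a MyoG density near the median of all loci, 1.54 against 1.64 per 100 kb. All 12 myotube MyoD peaks lay in H3K4me1 domains of each stage, 7 were present in myoblasts, and 3 had a MyoG peak. The strongest, inside the locus and 60.9 kb from the 5′ end at 139326220 to 139327977, was above 97.8% of the myoblast list and 96.5% of the myotube list. Its MyoG peak was above 53.8% of the MyoG list. A group of 5 myotube peaks lay 36.4 to 47.0 kb downstream, with scores from 138 to 1642 and 0 MyoG peaks. All 5 had Tas1r2, a taste receptor gene, as their nearest locus, and the other 7 of the 12 had Pax7. There is 1 site upstream, 7.76 kb from the start at 139396647 to 139397484, above 87.7% of the list in myoblasts and 83.2% in myotubes. H3K4me1 covered 42.7% of the window in myoblasts and 48.7% in myotubes, the highest share of the 9 loci at each stage.

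Pax3 (chromosome 1, 78097841 to 78193711), with 0.023 FPKM or less in every library, was the only one of the 9 with fewer MyoD peaks in myotubes (4) than in myoblasts (5). Its main site, inside the locus at 78178165 to 78179020, ranked above 96.3% of the list in myoblasts and 80.2% in myotubes, with MyoG above 74.5%. The site at 78214724 to 78215512, 21.0 kb beyond the right end, went the other way, from above 31.7% to above 75.8% of its list. H3K4me1 covered 11.9% of the window in myoblasts and 11.8% in myotubes.

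**Figure D5:**
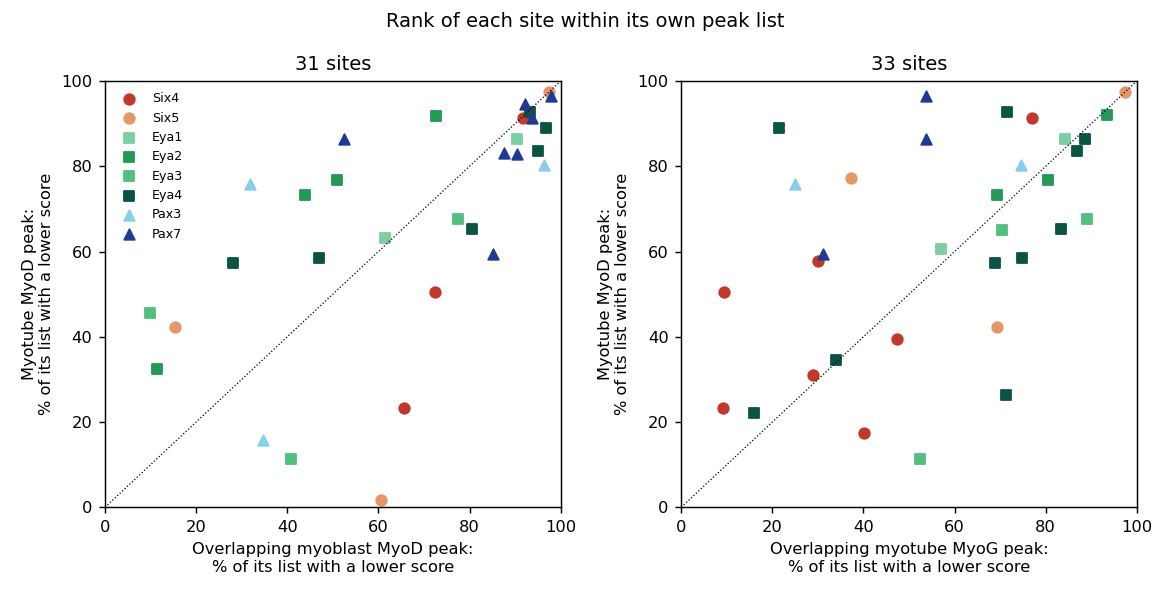
Each point is a myotube MyoD site near a member, placed by the share of the myotube MyoD list with a lower score (vertical) and by the same share for the overlapping myoblast MyoD peak (left, 31 sites) or MyoG peak (right, 33 sites). Points on the dotted line rank alike in both lists. All 3 Pax7 sites in the right panel lie above the line, and the Dmpk site near Six5 is at the top right of both.

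Of the 3 genes near 0 FPKM at 4 h, Six2 had no peak, Pax3 had a myoblast MyoD site above 96.3% of its list and Eya2 a myotube site above 92.1%. Among the 6 measured genes, Six4 and Eya4, the lower ones in DRRi, had 9 and 14 MyoG peaks, and the other 4 had 3 to 5. The peak lists come from myoblasts and 48 h myotubes and the RNA from 4 h, so the 2 kinds of data do not describe the same cells.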

How the data were processed

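C2C12 RNA (4 libraries) and ChIP-seq (5 samples) were analysed, with 1 sample per group. FPKM, p-values and q-values per coding sequence are those the authors deposited, in 2 tables normalized separately; TopHat and mm9 are named in the submitters' processing notes, and the sources used here do not give the scaling. A table's condition not named for GFP was taken as DRRi or pHAN_DRR1.2, since the labels tie it to 2 samples. MACS peaks with a score of at least 60 are as deposited, per the file headers. The H3K4me1 lists, for which the notes name SICER, give deposited counts of ChIP and control reads, a p-value and their fold ratio per domain. The labels list 2 runs for each MyoD and MyoG sample, deposited as 1 peak list. Read depths are not given in the sources used here.

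FPKM was summed per symbol. Genes with a mean of 1 FPKM were kept, and log2 changes used a pseudocount of 1, which understates changes of low genes. Standard errors were derived from the authors' p-values. Intervals overlapped at 1 bp or more and lay near a gene at 50 kb or less from its locus. Scripts (Python 3.11.15, pandas 2.3.3, scipy 1.17.1) were tested on simulated data. All 9 genes were named, and list genes where they passed 1.5-fold or the authors' q. The members, lists and rules were chosen with earlier results of these data known. Alternatives varied the pseudocount, filter, scaling, fold, coding sequence, distance, score and overlap.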

Additional observations from a re-analysis of the deposited data

How the results depend on the processing

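All 36 recomputed log2 changes of members, with a pseudocount of 0.1, the most abundant coding sequence alone or centring on the median gene, moved by 0.093 or less, under the error implied by the authors' p-values. The count of 2 members lower in DRRi was unchanged by every alternative except 2-fold as the size counted, which gave 0. Over all genes, 493 were higher in DRRi at 1.5-fold, and 320 with a mean of 5 FPKM or more; at 2-fold 95 were higher and 85 lower, against 370 lower at 1.5-fold. For pHAN_DRR1.2 the counts of 148 higher and 70 lower became 230 and 120 with a pseudocount of 0.1, 90 and 40 with a mean of 5 FPKM, 34 and 9 at 2-fold, and 70 lower became 113 with the most abundant coding sequence.

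Peak counts follow the window. Within 10 kb there were 25 MyoD peaks in myoblasts, 37 in myotubes, 23 MyoG peaks, and 59 and 71 H3K4me1 domains; within 100 kb there were 65 MyoG peaks. At or above the median of each list the counts were 23, 36, 21, 49 and 70. Counting only peaks whose nearest locus is the member, an alternative added after seeing the data, gave 39 myotube MyoD and 27 MyoG peaks. With both lists limited to their upper part by score or fold, 44.4% of myotube MyoD peaks near the members overlapped a myoblast H3K4me1 domain, against 75.0%. Fewer intervals remain in that setting, and the share of the whole list was not computed for it. No paired analysis was possible because each group had 1 sample. Without read depths, a peak missing from a list cannot be told apart from one below its threshold.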

Other observations

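Eya3 was listed with 3 coding sequences. The most abundant stood at 13.1 FPKM in pHAN_DRR1.2 and 12.2 in pHAN_GFP, and another was listed at 0.00016 and 0.874, so that their sums, 13.1 and 13.0, were nearly equal. In the authors' deposited table the q was 1.00 for all 3.

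The sites nearest to the 50 kb limit were an Eya3 site just inside, at 49.8 to 49.9 kb, and a Six5 site just outside, at 50.3 to 50.5 kb. Their scores were 446 inside and 114 outside for myoblast MyoD, 318 and 346 for myotube MyoD, and 566 and 225 for MyoG. Smpdl3b, the nearest locus of 2 of the Eya3 sites, was at 14.4 FPKM in DRRi and 11.8 in GFPi (log2 change 0.27).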
